A study of Drosophila melanogaster with 2 samples.

Results

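The optimal peaks of btn-eGFP that lie beside a promoter without sitting on it numbered 434 of the 2153 optimal peaks of the study (20.2%). A peak belonged to them when its summit was more than 200 bp and at most 1000 bp from the nearest transcription start site (TSS) of a protein-coding gene. Peaks with a divergent promoter pair within 1 kb were left out, which removed 52 of 486. Their comparison set was 5482 weaker candidate regions at the same distances, selected in the same way, none of which overlapped an optimal peak. Of these 5916 regions, 7.34% were therefore optimal peaks, which is the background for shares of candidates that include coding exons. Outside coding exons 432 members stand beside 3073 weaker candidates, so the background share there is higher. The signal of a region, as the authors gave it, decided which candidates were optimal, so signal is described here and no p-value for it is given.

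Btn (Buttonless) is a homeodomain transcription factor of Drosophila melanogaster, required in the embryo for the dorsal median cells of the ventral midline. Whole embryos aged 0 to 14 hours, male and female pooled, came from a stable transgenic line in which btn is fused to eGFP at its C-terminal end. Chromatin sheared by sonication to 200 to 800 bp was recovered with anti-GFP, and the 1 group has 2 biological replicates, numbered 2 and 3. The same transgenic line gave all embryos, no embryos without the tag were analysed here, and the signal is an average over all cells of the embryo, although btn marks few of them. A signal at a region therefore shows recovery with anti-GFP in this line, which cannot be told apart here from recovery that does not depend on btn. Read numbers are not given for either library, depth is therefore unknown, and intervals cover the counting of regions only.

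Homeodomain proteins contact short AT-rich sites, with TAAT at their core. The stretch just upstream of a TSS holds proximal promoter elements and often an enhancer, and many Drosophila genes have internal promoters whose upstream sequence is an intron of the same gene. GAGA factor (Trl), which reads runs of alternating G and A, is a well-known protein of such promoter regions in the fly embryo and is associated with open chromatin.

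The DNA at the strongest of these peaks is shown first. The windows reach 100 bp to each side of the summit on the plus strand of the Release 6 genome (RefSeq). They are the strongest members for which a window could be printed (outside untranslated regions and 1 chromosome arm), and the strongest such carriers of each word that passed its test. Capitals mark, on either strand, the repeat GAGAGAG and the 5 leading hexamers of the word comparison below, which are AGAGAG (with its shifted form GAGAGA and the neighbouring word GAGAGC) followed by ACAGTG and, from outside that group, CGCCAC. The window at ph-p (chrX:2137242-2137442, an intron, 487 bp upstream of an internal TSS) holds none of them. The window at Lk6 (chr3R:11760947-11761147) lies in an intron 968 bp upstream of an internal TSS, and that at CG9663 (chr2L:3302083-3302283) in an intron 947 bp downstream of the TSS.
ph-p: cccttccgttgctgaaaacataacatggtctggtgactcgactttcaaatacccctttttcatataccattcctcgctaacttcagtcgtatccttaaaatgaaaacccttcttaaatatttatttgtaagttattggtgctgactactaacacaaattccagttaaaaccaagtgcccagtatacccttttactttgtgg
Lk6: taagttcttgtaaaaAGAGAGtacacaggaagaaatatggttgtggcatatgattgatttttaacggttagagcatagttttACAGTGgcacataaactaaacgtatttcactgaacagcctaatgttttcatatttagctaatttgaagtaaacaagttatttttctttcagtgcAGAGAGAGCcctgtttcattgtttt
CG9663: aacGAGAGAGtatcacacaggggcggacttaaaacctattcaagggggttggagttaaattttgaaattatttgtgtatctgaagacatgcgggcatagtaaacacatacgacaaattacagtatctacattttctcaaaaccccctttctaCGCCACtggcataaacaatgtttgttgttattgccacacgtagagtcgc

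The second set runs from 75 bp beyond the summit to 224 bp before it in the direction of the TSS, and reads from left to right toward the TSS, with the summit at position 76. These are the 3 strongest printable members with GAGAGAG (in capitals, either strand) centred 100 to 200 bp from the summit on the TSS side, a choice made after the values were seen. They were chosen to show the arrangement the counts describe further on, an AT-rich summit with the repeat off to the side. In the flank comparison further on, the repeat did not differ after adjustment. The stretch at Lk6 is chr3R:11760823-11761122 on the minus strand. The stretch at cbt is chr2L:479846-480145 on the minus strand, and that at CG11151 is chrX:13739422-13739721 on the plus strand, 247 bp upstream of its TSS. GC content within 50 bp of the summit was 30.7% at Lk6, 32.7% at cbt and 27.7% at CG11151, and the repeat was centred 166, 162 and 162 bp from the summit.
Lk6: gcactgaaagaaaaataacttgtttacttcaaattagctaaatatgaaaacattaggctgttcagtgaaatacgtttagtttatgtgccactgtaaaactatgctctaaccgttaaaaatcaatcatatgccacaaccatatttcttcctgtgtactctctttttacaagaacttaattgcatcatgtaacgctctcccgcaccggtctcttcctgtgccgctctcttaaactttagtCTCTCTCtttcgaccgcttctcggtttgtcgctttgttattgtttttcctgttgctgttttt
cbt: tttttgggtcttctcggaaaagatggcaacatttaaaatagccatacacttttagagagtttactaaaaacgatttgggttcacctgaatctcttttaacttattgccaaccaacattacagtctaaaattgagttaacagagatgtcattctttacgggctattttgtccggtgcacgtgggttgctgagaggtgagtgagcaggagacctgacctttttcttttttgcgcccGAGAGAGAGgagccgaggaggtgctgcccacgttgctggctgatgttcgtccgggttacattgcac
CG11151: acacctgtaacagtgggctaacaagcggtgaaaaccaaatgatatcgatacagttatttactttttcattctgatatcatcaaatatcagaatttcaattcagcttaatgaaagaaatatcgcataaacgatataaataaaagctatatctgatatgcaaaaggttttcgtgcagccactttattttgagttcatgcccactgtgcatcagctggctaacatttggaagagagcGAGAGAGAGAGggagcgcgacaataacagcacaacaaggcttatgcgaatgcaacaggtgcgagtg

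The 434 peaks belonged, by nearest TSS, to 398 genes, of which 366 had 1 peak, 28 had 2 and 4 had 3. The 4 were Rtnl1, which shapes the endoplasmic reticulum, the glycolytic enzyme gene Pgk, CAP and the transcription factor gene lola. Of the 434 peaks, 18 overlapped another one, so that the 434 covered 425 separate stretches. At Pgk, lola and E(spl)m7-HLH a pair of overlapping peaks matched the same candidate in each replicate, so these pairs are not separate measurements. Of the 434 regions, 353 (81.3%) were 410 bp wide, the widest value, so width carries little information.

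Every one of the 434 overlapped a candidate in both replicates, at ranks down to 8021 in replicate 2 and 6421 in replicate 3. The optimal list was made from the same libraries, so this overlap is a description and not separate support. The pooled signal ranged from 70.6 to 1220 with a median of 114, against 70.5 to 1194 with a median of 102 for the other 1719 optimal peaks. The replicate lists put the median member at rank 838.5 in replicate 2 and at rank 900.5 in replicate 3. Across the 434 regions the signals of the replicates had a Spearman correlation of 0.74 and a Pearson correlation of 0.811 on the log2 scale, given as a description, since the regions share libraries and were selected on the same reads. Taking the 2153 strongest candidates of each replicate, 334 of the 434 (77.0%) were among them in both, against 1180 of 1719 other optimal peaks (68.6%). With the 5000 strongest the shares were 97.9% and 96.2%. These shares rest on the signal that chose the peaks and are given as a description, beside the medians above.

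**Figure D1:**
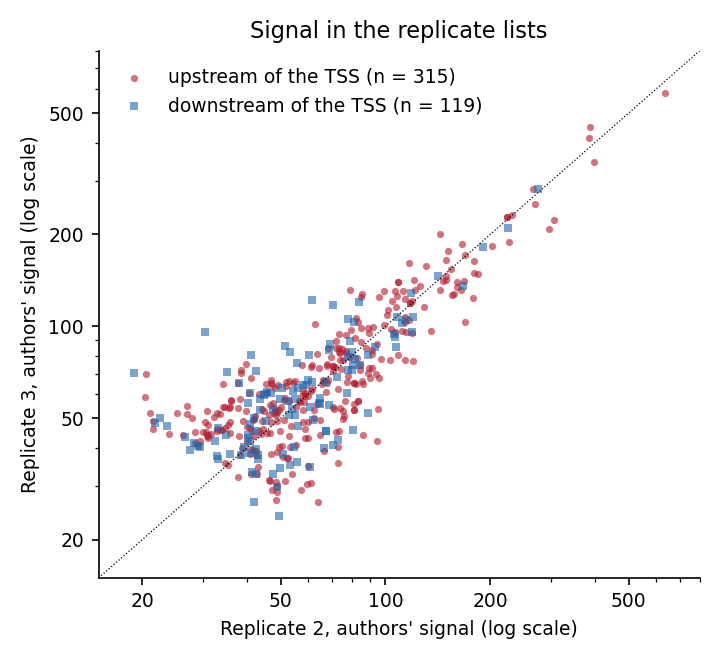
Signal of the authors in replicate 2 (x axis) and replicate 3 (y axis) for the 434 peaks, 1 point each, on log axes with the line of equality dotted. The 315 upstream and 119 downstream peaks lie along the same diagonal, and the scatter widens at the weak end.

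The leading members were px, ph-p, Lk6, CG1888 and CG9663, which were among the 20 strongest optimal peaks of the study; 22 members were among the strongest 100. The peak at px, a wing vein gene, was the strongest of the whole optimal list, with a signal of 1220 in the pool, 635 in replicate 2 and 583 in replicate 3. It lay at chr2R:22514107-22514500, in an intron 203 bp upstream of an internal TSS. The peak at ph-p, which encodes a Polyhomeotic subunit of Polycomb repressive complex PRC1, had a signal of 833 in the pool, 388 in replicate 2 and 450 in replicate 3, at chrX:2137168-2137553. Its neighbour and duplicate ph-d had a weaker peak of 125, 770 bp upstream of its TSS between genes; replicates 2 and 3 gave 70.7 and 54.3. The peak at Lk6, a kinase that phosphorylates the cap-binding protein eIF4E, had a signal of 794, with 384 and 413 in replicates 2 and 3. The peaks at px, ph-p and Lk6 had ranks of 11 or better in each replicate.

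Among the 20 strongest, 10 lay in introns of their own gene upstream of an internal TSS. Beside px, ph-p and Lk6 they were larp, an RNA-binding protein gene (signal 529), Rtnl1 (504), Reph (462), chif, which encodes the Dbf4 subunit of a replication kinase (350), the insulin receptor gene InR (344), the BMP signal transducer Mad (328) and the chromatin protein gene HmgZ (323). The summits at chif and HmgZ also lay within Hyls1 and HmgD. CG1888 (740) also lay inside its gene, in a 5′ UTR. Sox14, an ecdysone-induced HMG-box factor (523), RasGAP1, which shuts off Ras (447), CG9743 (383) and the sestrin gene Sesn (353) had peaks between genes. CG13501 (415) and cbt, a zinc finger factor (333), had upstream peaks inside introns of the neighbours Snp and ush, and the nearest TSS need not be that of a regulated gene. CG9663 (560), CG31635 (437) and the phospholipid acyltransferase gene LPCAT (372) were the 3 of the 20 with a summit downstream of the TSS.

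The summits lay mostly upstream. Of the 434, 315 (72.6%) were upstream of their nearest TSS, against 2050 of 5482 weaker candidates (37.4%). The odds ratio was 4.43 (3.55 to 5.56; two-sided Fisher's exact test, p = 3.17e-46, and p = 1.58e-45 after Benjamini-Hochberg adjustment over 5 tests, on side, core promoter, noncoding TSS, chromosome X and replicate support). Part of that contrast ran with coding sequence, which in this window lay mostly, though not only, downstream of the nearest TSS. Without summits in coding exons the shares were 72.9% and 53.5%, with an odds ratio of 2.34 (exact p = 1.10e-14). Within introns alone they were 61.4% and 42.8%, with an odds ratio of 2.12 (exact p = 2.96e-08). At 200 to 500 bp from a TSS, coding exons included, the shares were 85.1% and 40.5%. The odds ratio there was 8.35, beside the 4.43 of the whole window. Members upstream and downstream had similar signals, with medians of 115.3 and 109.

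The 2 sides also ran differently with distance. Over the whole window outside coding exons, 16.1% of the upstream candidates and 7.57% of the downstream ones were optimal peaks. Outside coding exons, 21.9% of the candidates (18.1 to 25.9) 200 to 300 bp upstream of a TSS were optimal peaks, 99 of 453. The share was lower in each 100-bp step out to 800 to 900 bp, where it was 7.101% (3.72 to 12.1), and was 7.84% (4.12 to 13.3) at 900 to 1000 bp. Downstream it was 3.43% (1.49 to 6.65) at 200 to 300 bp, between 6.50% and 7.88% from 300 to 800 bp, 9.77% at 800 to 900 bp and 12.2% (8.01 to 17.7) at 900 to 1000 bp. The intervals of the 2 sides did not overlap below 400 bp, and they overlapped from 400 bp on. Median distances were 386 bp for the upstream members and 673 bp for the downstream ones.

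**Figure D2:**
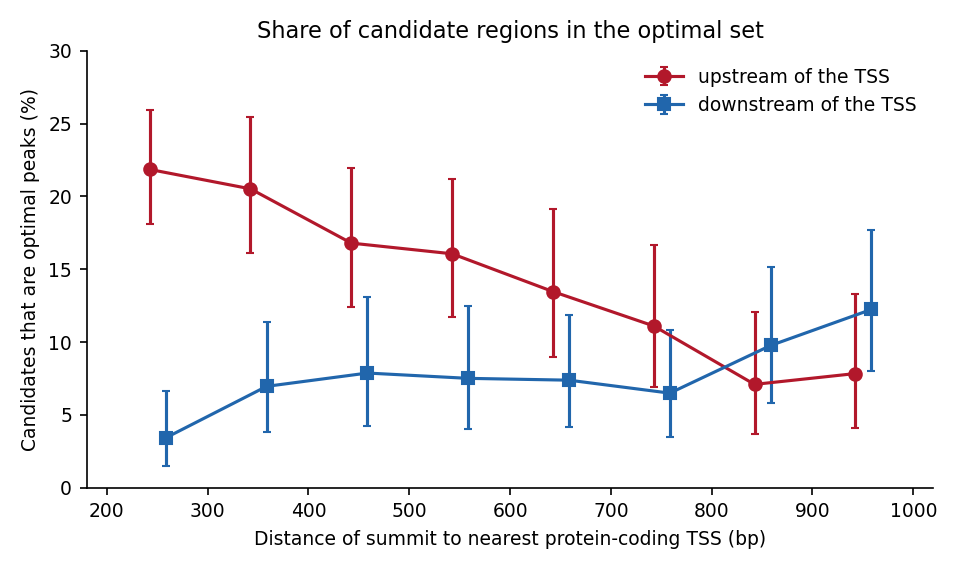
Share of candidate regions outside coding exons that were optimal peaks (y axis, percent) by distance of the summit from the nearest protein-coding TSS in 100-bp steps (x axis), with exact 95% binomial intervals. The upstream share is 21.9% nearest the TSS and the downstream share 3.43%, and the downstream share is the higher one from 800 bp on.

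Introns and the space between genes held nearly all of these peaks. An intron held 259 of the 434 summits (59.7%), against 1637 of 5482 weaker candidates (29.9%), with an odds ratio of 3.48 (2.83 to 4.27; two-sided Fisher's exact test, p = 3.24e-34 after Benjamini-Hochberg adjustment over 6 classes). Intergenic sequence held 139 (32.0%) against 766 (14.0%), with an odds ratio of 2.90 (2.32 to 3.61; same exact test, adjusted p = 1.43e-19). Coding exons held 2 (0.461%) against 2409 (43.9%), with an odds ratio of 0.00591 (same exact test, adjusted p = 7.21e-99), and the 3′ UTR held 4 (0.922%) against 172 (3.14%), with an odds ratio of 0.287 (adjusted p = 0.00742). The difference in coding exons moves with base composition, which was not separated from it in this test: mean GC within 100 bp of the summit was 37.5 ± 6.48% (SD) in the members and 48.7 ± 10.1% in the weaker candidates. The 5′ UTR, with 23 (5.30%) against 400 (7.30%), and noncoding exons, with 7 (1.61%) against 98 (1.79%), gave adjusted p-values of 0.175 and 1.

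**Figure D3:**
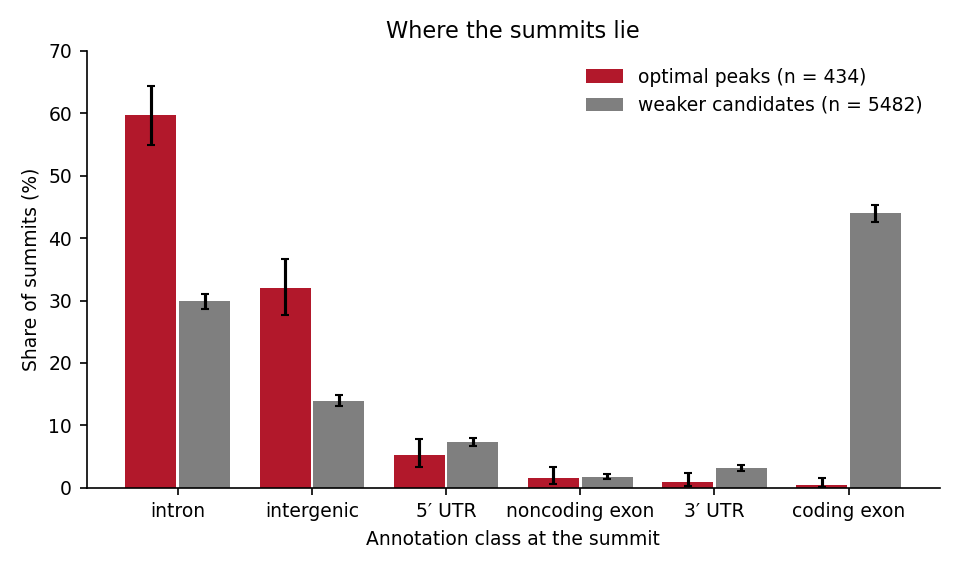
Share of summits (y axis, percent) in each annotation class (x axis) for the 434 optimal peaks and the 5482 weaker candidates, with exact 95% binomial intervals. Introns hold 59.7% of the peaks and 29.9% of the weaker candidates, and coding exons 0.461% and 43.9%.

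By a small margin, the commonest place was inside a gene, just upstream of an internal promoter. Coding exons aside, 146 of 432 members (33.8%) lay upstream of their nearest TSS and yet within the span of that gene, against 578 of 3073 weaker candidates (18.8%). The odds ratio was 2.20 (1.76 to 2.76; two-sided Fisher's exact test, p = 1.00e-11), in a comparison added after the values were seen. Of all candidates in that place 20.2% (17.3 to 23.3) were optimal peaks, beside 16.1% of all upstream candidates outside coding exons. The share was 14.95% (12.7 to 17.4) upstream and between genes (141 members, 32.6%), and these 2 intervals overlapped. Upstream inside another gene it was 9.56% (6.44 to 13.5, 28 members). Downstream of the TSS and inside the gene, the share was 8.06% at internal TSSs (56 members) and 7.30% at outermost TSSs (58 members). Genes with only 1 TSS took 30.6% of the members and 41.1% of the weaker candidates outside coding exons.

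Rtnl1 shows this pattern. It has 7 annotated TSSs, and its 3 peaks, with pooled signals of 504, 182 and 148, lay 267, 244 and 349 bp upstream of internal TSSs in introns of the gene. At CAP, with 10 TSSs, peaks of 159 and 135 lay 503 and 411 bp upstream of internal TSSs, and the other one of 84.7 lay 827 bp downstream in a 5′ UTR. At lola, with 4 TSSs, the 3 peaks were all intronic and upstream.

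A peak at the core promoter of the same gene was uncommon in members and weaker candidates, and less so in the members. The nearest gene had an optimal summit within 200 bp of any of its TSSs for 51 of the 434 members (11.8%), against 395 of 5482 weaker candidates (7.21%). The odds ratio was 1.71 (1.23 to 2.35; two-sided Fisher's exact test, p = 0.00122, adjusted p = 0.00204). With optimal peaks at or above their median signal alone it was 1.52 (exact p = 0.159), and with a core promoter of 100 bp it was 1.53 (p = 0.0589). Without coding exons it was 1.56 (exact p = 0.00869). The nearest gene had only 1 TSS for 30.4% of the members and 52.2% of the weaker candidates, and the test did not adjust for this. Weaker candidates that overlap an optimal peak are outside the comparison set, which removes some candidates next to a core peak; with these kept the odds ratio was 1.54 (exact p = 0.00825). Another optimal summit of any kind lay within 1 kb of 63 members (14.5%), and the median distance to the next one was 9934 bp.

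The TSS of a noncoding gene lay within 200 bp of 4 members (0.922%) and of 111 weaker candidates (2.02%), a difference short of the threshold (odds ratio 0.45, 0.12 to 1.19; two-sided Fisher's exact test, adjusted p = 0.145). Without coding exons the odds ratio was 0.296 (exact p = 0.00766). Chromosome X held 93 of the 434 (21.4%), against 858 of 5482 (15.7%), with an odds ratio of 1.47 (1.14 to 1.88; two-sided Fisher's exact test, adjusted p = 0.00277). Without coding exons the shares on X were closer, 21.5% and 17.1%, with an odds ratio of 1.33 (1.02 to 1.71, exact p = 0.0310). The autosomal arms 2L, 2R, 3L and 3R held 84, 86, 74 and 96 members, and chromosome 4 held 1.

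Base composition dipped at the summit. In 20-bp bins, mean GC was 34.7% at the summit of the members, 43.4% 240 bp away from the TSS and 45.9% 260 bp toward it. Weaker candidates outside coding exons had no such dip, with 42.1% at the summit and 41.7% and 43.6% at the same positions. Intronic optimal peaks 1 to 5 kb from a TSS (381 peaks) had the same kind of profile as the members, with 34.0% at the summit. Optimal peaks within 200 bp of a TSS (348 peaks) were flatter, with 41.2% within 50 bp of the summit against 35.9% in the members. Since base composition differed this much, words were compared within strata of 5 percentage points of GC.

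**Figure D4:**
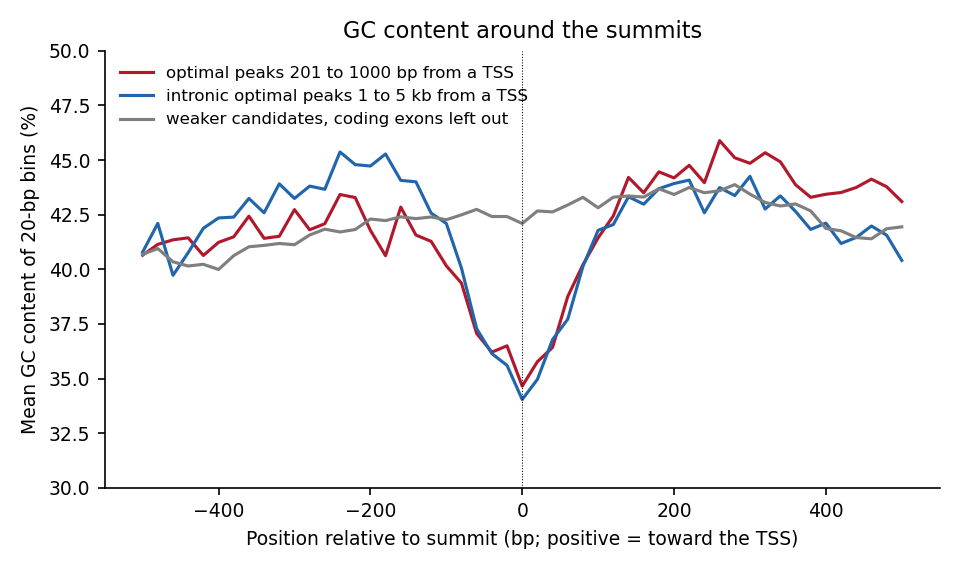
Mean GC content (y axis, percent) in 20-bp bins from 500 bp beyond the summit to 500 bp on the TSS side (x axis) for the 434 peaks, the 381 intronic optimal peaks farther away and the weaker candidates outside coding exons. At the summit the members have 34.7%, the intronic optimal peaks 34.0% and the weaker candidates 42.1%.

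The homeodomain core TAATTA was not commoner in the members once base composition was held within strata. Windows reaching 100 bp from the summit held it in 46 of 434 members (10.6%) and in 388 of 5482 weaker candidates (7.08%), but within GC strata its odds ratio was 0.672 (0.471 to 0.943; exact test of a common odds ratio, p = 0.0174, p = 0.109 after Benjamini-Hochberg adjustment over 25 words). The control words ATTAAT and TTATAA, of the same letters, gave 0.856 and 0.913, with adjusted p-values of 0.774 and 0.942. TGATNNAT, the composite site of Exd with a Hox protein, was in 14.1% against 9.74%, with an odds ratio of 0.877 (exact test, adjusted p = 0.854). Without strata all 4 were commoner in the members, with TAATTA at an odds ratio of 1.56.

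Of the 25 words searched, 1 (4%) was commoner in the members at an adjusted p under 0.05, GAGAGAG, the repeat read by GAGA factor. It was in 44 of 434 members (10.1%) against 213 of 5482 weaker candidates (3.89%), with an odds ratio of 3.13 (2.10 to 4.61; exact test over GC strata, adjusted p = 8.68e-07). Leaving out either replicate gave 2.94 and 3.18. Against intronic optimal peaks 1 to 5 kb from a TSS, whose mean GC was 37.4% beside 37.5% in the members, it was also commoner, 10.1% against 3.15% (odds ratio 3.52, 1.79 to 7.48; exact test, adjusted p = 0.00165 over the 25 words). Against optimal peaks within 200 bp of a TSS it was 10.1% against 7.76%, with an odds ratio of 1.92 (1.09 to 3.46; exact test, adjusted p = 0.103). The strongest carriers were px, Lk6, CG9663 and CG9743, and the carriers had about the same signal as the others, a median of 120 against 114. Coding exons held 43.9% of the weaker candidates and 0.461% of the members, so part of the contrast in shares can run with coding sequence. Without coding exons the hexamer AGAGAG, part of this repeat, was in 21.3% of members and 13.0% of weaker candidates. Its odds ratio over GC strata was then 2.15, beside 2.43 with coding exons.

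Without GC strata, the members' share with the repeat was close to that of the weaker candidates within 50 bp of the summit. It was higher in each zone from there out to 500 bp. Within 50 bp of the summit 14 members (3.23%) had it, against 3.48% of the weaker candidates outside coding exons. At 50 to 100 bp it was 36 members (8.29%) against 3.45%, and at 100 to 200 bp 90 members (20.7%, 17.0 to 24.9) against 6.83% (5.97 to 7.78). That last zone covers about 2 times as many bases as each of the nearer ones. In steps of 50 bp on 1 side, the members had it in 2.07% next to the summit on the TSS side, then in 4.38%, 5.76% and 8.29% (at 150 to 200 bp) and in 5.30% beyond that, and the weaker candidates outside coding exons in 1.79%, 2.08%, 1.95%, 2.21% and 2.05% of the same steps. On the far side the members had 1.38%, 3.92%, 5.30% and 4.61%, and the weaker candidates 1.79%, 1.56%, 2.08% and 1.63%. In the zone at 100 to 200 bp it was in 12.1% of the optimal peaks within 200 bp of a TSS and in 9.97% of the intronic ones. On the TSS side 57 members (13.1%) had it at 100 to 200 bp, and on the far side 41 (9.45%). Within 200 bp of the summit it was in 122 of the 434 (28.1%), against 11.8% of the weaker candidates outside coding exons. At 200 to 500 bp, a wider zone, it was in 28.3% of the members and 15.8% of those weaker candidates. These zones were chosen after the values were seen and have no test. Mean GC within 50 bp of the summit was 35.9% in the members and 42.4% in the weaker candidates outside coding exons. The shares there are therefore not compared at equal GC. Over GC strata, against all weaker candidates, the odds ratio of the repeat within 50 bp was 1.69 (0.833 to 3.19). That interval includes no difference, so an excess next to the summit is not decided.

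**Figure D5:**
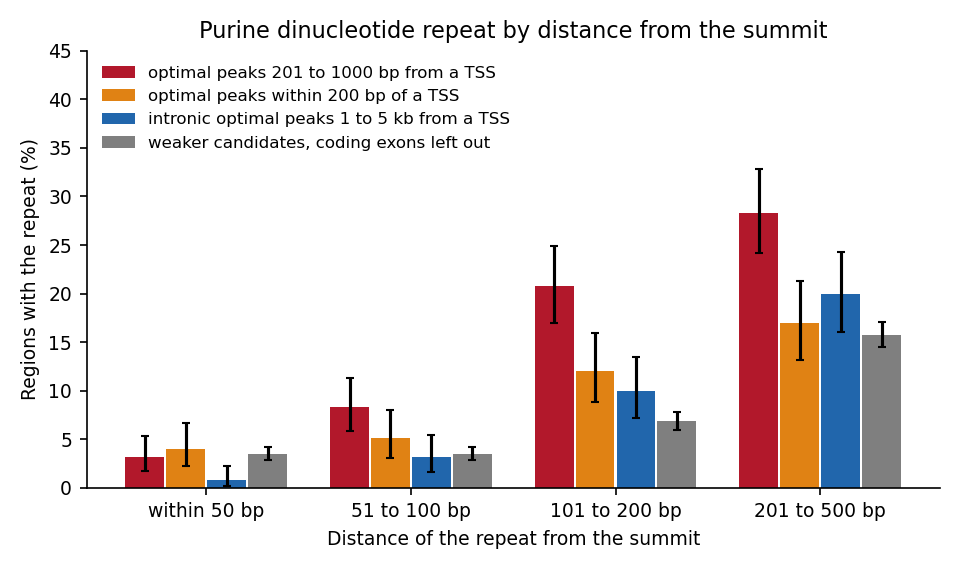
Share of regions (y axis, percent) with the alternating purine repeat at 4 distances from the summit (x axis) for the 434 peaks, the optimal peaks within 200 bp of a TSS, the intronic optimal peaks and the weaker candidates outside coding exons, with exact 95% binomial intervals. The zones differ in width, so bars compare sets within a zone: at 100 to 200 bp the members have 20.7% and the other 3 sets between 6.83% and 12.1%. Shares are not stratified by GC.

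Other words came close without passing. GGCGCC, the site of Brinker and Mad, was in 4.84% against 7.00%, and within GC strata its odds ratio was 2.05 (1.18 to 3.42; exact test, adjusted p = 0.0848). The CA repeat CACACACA, at 6.91% against 4.30%, had an odds ratio of 1.78 by the same exact test (adjusted p = 0.0911). The A tract AAAAAAAA was in 11.1% against 6.82%, with an odds ratio of 0.685 (exact test, adjusted p = 0.113). In all, 3 of the 25 words were commoner and 2 rarer at an unadjusted p under 0.05. The other words were GATAAG (site of GATA factors; odds ratio 1.07), TGTTTAC (forkhead; 0.944), AGGTCA (nuclear receptors; 0.999), TATAAA (the core promoter box of that name; 0.852), TCAGT (Initiator; 1.14), GCCATT (Pleiohomeotic; 0.801) and the E-boxes CACGTG (1.01), CAGCTG (1.08) and CATATG (1.19), CCGGAA (ETS; 0.928) and GTGGGAA (Suppressor of Hairless; 0.718), with adjusted p-values of at least 0.741. TGAGTCA (AP-1), CAGGTAG (Zelda), ACCGGTT (Grainy head), TGACGTCA (CRE), TATCGATA and GGTCACAC were in at most 6 members each, too few to show a difference of moderate size.

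A pair of core promoter words was rare in the members, whose windows end at least 100 bp short of the nearest TSS by the rule on distance, so the shares below are a description with no test. TATCGATA, the DNA replication-related element bound by DREF and BEAF-32, was in 2 of 434 members (0.461%) and in 5.46% of the 348 optimal peaks within 200 bp of a TSS. GGTCACAC, the core of motif 1 bound by M1BP, was in 1 member (0.23%) and in 4.02% of those peaks. The weaker candidates at the members' distances had low shares too, 0.347% for TATCGATA and 0.328% for GGTCACAC, so the rarity is not particular to the members. Both elements are textbook elements of housekeeping core promoters, and both were as rare in the intronic optimal peaks (0.262% each).

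All 2080 words of 6 bases were then compared, each counted together with its reverse complement, and 23 (1.11%) were commoner in the members and 0 rarer (Cochran-Mantel-Haenszel test over GC strata, adjusted p under 0.05). At an unadjusted p under 0.05, 117 were commoner and 95 rarer. The word with the lowest p was AGAGAG, in 21.4% against 9.16% (odds ratio 2.43, adjusted p = 2.60e-08; exact test over the same strata, unadjusted p = 3.75e-10), and 7 of the 23 hold GAGAG or AGAGA on either strand, so that they overlap the repeat. Next came ACAGTG, in 21.4% against 10.3% (odds ratio 1.87, adjusted p = 0.000966; exact test, unadjusted p = 3.15e-06), and CAGTGG and ACTGTA share 5 letters with it. GAGAGC (odds ratio 2.01), CGCCAC (2.14) and GAGAGA (1.93) followed with an adjusted p of 0.00196 each. The calls of CGCCAC were lost without replicate 2 (odds ratio 1.54) and at or above the median signal (1.77), where GAGAGC (1.98) and GAGAGA (1.89) also missed the threshold, as they did at 200 to 500 bp (1.65 and 1.73). Without strata the call of GAGAGC was lost too (1.34). ACAGTG missed it among upstream summits outside coding exons (1.40), and none of the 5 passed within 50 bp of the summit, where their odds ratios were between 1.03 and 1.84. CGCCAC was in fewer members than weaker candidates before stratification, 11.8% against 13.5%. The rarer words with the lowest p were GATCAC (2.07% against 8.08%, odds ratio 0.332, adjusted p = 0.0643; exact test, unadjusted p = 0.000326), GATTCC (odds ratio 0.429), AAATCG (0.604), GGAAAA (0.654) and AGTGAT (0.528).

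Within the members, the bases within 50 bp of the summit were set against those within 50 bp of a point 300 bp farther from the TSS, and 0 of the 25 words differed after adjustment (exact McNemar test, 3 words at an unadjusted p under 0.05). TAATTA was at 5.99% of the summits and 5.30% of the flanks. TATAAA was at 16.1% against 10.4% (exact p = 0.0176, adjusted p = 0.358), CACACACA at 2.76% against 5.99% and AAAAAAAA at 5.99% against 9.91%. Against a flank 300 bp nearer to the TSS, which is richer in GC (45.2% against 35.9% at the summit), TATAAA was commoner at the summit, 16.1% against 6.45% (exact McNemar test, adjusted p = 0.000273). GAGAGAG was at 5.76% of these nearer flanks (same exact test, adjusted p = 0.365).

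Genes beside these peaks were counted by list without a test. Lists of signalling and development come first. Lists of other kinds are given further on: actin genes were at 17.6% and cell cycle genes at 16.7%, and the housekeeping lists had none. A candidate in the window was nearest to 4258 genes, of which 398 (9.35%) had a member. In the EGFR pathway, which passes signals from the Ras-Raf cascade to ETS factors, 5 of 10 genes had a member. The ligand gene spi had a signal of 166 in the pool, 169 in replicate 2 and 103 in replicate 3, 374 bp upstream of an internal TSS. The kinase gene Raf had 214, with 112 and 102 in replicates 2 and 3, in an intron 909 bp downstream of the TSS. The repressor genes at the end of the cascade, cic and aop, had 140 and 112, and the inhibitor gene sty had 94.3. These counts are small and the list was assembled with earlier results of these data known.

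In the BMP pathway 3 of 10 genes had a member: Mad, the transducer (328, in an intron 656 bp upstream of an internal TSS), and the transcription factors that act on its targets, shn (213) and brk (100). Of the Hippo and growth genes, InR (344) and the cadherin gene ds (184) had a member. Among the Notch genes 3 of 16 had a member, the repressor genes E(spl)m7-HLH (128) and E(spl)m3-HLH (77.5) and the acetyltransferase gene nej (162). The Wingless and Hedgehog list had 1 of 9, the kinase gene sgg (300).

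Among neural fate genes 4 of 21 had a member, brat (257), lola (144), elav (133) and fru (82.2). Glial genes had 3 of 12, Gs2 (160), nrv2 (83.8) and Gli (80.6), and axon guidance genes 2 of 15, unc-5 (117) and Ama (102). Mesoderm and muscle genes had 4 of 20, the giant sarcomere and nuclear anchor genes sls (143) and Msp300 (166), the T-box gene org-1 (131) and the integrin gene if (83.5). Homeobox genes, the family of btn, had 2 of 48, NK7.1 (231) and PHDP (110), a share of 4.17% beside the 9.35% of all genes. Polycomb and trithorax genes had 2 of 14, ph-p and ph-d.

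Housekeeping lists had none. Cytoplasmic ribosomal proteins had 0 of 28 genes, which allows a share of up to 10.7%, mitochondrial ribosomal proteins 0 of 8 (up to 37.5%), proteasome subunits 0 of 10 (up to 30%) and translation factors 0 of 16 (up to 18.8%). No single list is large enough to set it below the 9.35% of all genes. Together, a sum formed after the values were seen, they had 0 of 62 (up to 4.84%), and with replicate 2 alone 1 of 57.

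At the limits of the rule the values ran on without a break. The nearest summits inside were those of CG32115, 1 bp within the limit (signal 89.3), fkh at 202 bp (235) and px and Src64B at 203 bp, and the nearest outside was that of ASPP at 200 bp (180). At the far end vimar at 996 bp (70.8) and chif at 995 bp (350) were inside, and RabGGTa at 1001 bp (78.0) and CG14505 at 1002 bp (137) outside. The weakest member was peb with 70.6, and the strongest weaker candidate in the window was NimC3 with 70.4.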

How the data were processed

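The deposited files used were the peak lists in narrowPeak layout on dm6: candidates of replicate 2, of replicate 3 and of the pool, and the optimal list, which per the deposited README files came from an irreproducible discovery rate (IDR) analysis. No source used here gives the aligner, the peak caller or the IDR threshold. The signal is the authors' deposited peak value; it was used to rank and describe regions within a list. The summit offset is a deposited column of positions in bp. The deposited −log10 q-value was not used. Depth is unknown. TSSs and classes came from Ensembl release 115 (BDGP 6.54, 13968 protein-coding genes) and sequence from the Release 6 genome.

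Members, lists and words were chosen with earlier results of these data known. Tests were two-sided, in scipy 1.17.1 and R 4.3.3: Fisher's exact test with conditional odds ratios, an exact test of a common odds ratio over GC strata of 5 points for 25 words, a Cochran-Mantel-Haenszel test for 2080 words and an exact McNemar test for flanks, with Benjamini-Hochberg adjustment and a threshold of 0.05. Words were sought, on either strand, up to 100 bp from the summit. Intervals are at 95%, exact binomial for shares. For gene lists with 0 members, the upper limit given is 3 divided by the number of genes, an approximation and not an exact binomial limit. Regions are not biological replicates, so p-values describe how regions divide, not how embryos vary. Of the list names, 29 matched no gene.

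Genes named were the nearest genes of the 20 strongest members, up to 4 per list, those with most members and those at the limits of the rule; others (CG11151, and sty as the fifth EGFR gene) were chosen after their values were seen. The word test was tested on simulated data. Comparisons with other optimal peaks, the neighbours kept in the background and summits of single classes were added after seeing the data. Alternatives are given in the closing section. Data on dm3 were not used. The count of the Hippo and growth list is not reported here.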

Additional observations from a re-analysis of the deposited data

How the results depend on the processing

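Leaving out a replicate means that the 2153 strongest candidates of the other replicate took the place of the optimal list; these had 449 members without replicate 2 and 443 without replicate 3. No paired analysis was possible because there is 1 group. Side, chromosome X and upstream place inside the gene kept their direction and their side of the threshold in every alternative run, except side among intergenic summits alone (odds ratio 5.42, Fisher's exact p = 0.0705); at 200 to 500 bp the 3′ UTR missed it (0.378) and the 5′ UTR passed it (0.415). The odds ratio behind the described replicate shares was 1.53, and 1.89 with the 5000 strongest. The core promoter result missed the threshold at or above the median signal (1.52) and at 100 bp (1.53), and the noncoding TSS passed it without coding exons (0.296). Members within 500 bp numbered 241. The cause was not tested for any of these changes.

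For the 25 fixed words, those commoner in members numbered 10 without strata and 0 within 50 bp of the summit. Those rarer numbered 2 without strata, 1 at or above the median signal (TAATTA) and 0 to 1 without a replicate (TAATTA without replicate 2). For the 2080 words, those commoner numbered 15 to 22 without a replicate, 5 at or above the median signal, 9 at 200 to 500 bp, 465 without strata, 0 within 50 bp of the summit, 11 without coding exons and 10 upstream without coding exons (added after seeing the data); those rarer numbered 1 without either replicate, 3 with divergent peaks kept and 616 without strata. Against the flank, 0 to 1 words passed without a replicate and 1 with the nearer flank.

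Odds ratios that changed direction belonged, in the whole set, to words and classes short of the threshold, CGCCAC apart. Without strata they were TAATTA 1.56, ATTAAT 1.89, TTATAA 2.20, TGATNNAT 1.52, TATCGATA 1.33, CACGTG 0.74, CAGCTG 0.546, GGCGCC 0.675, TATAAA 2.33, TGTTTAC 1.49, AAAAAAAA 1.70 and CGCCAC 0.851. Within 50 bp they were TATCGATA 1.12, GATAAG 0.94, CACGTG 0.928, CAGCTG 0.911, CCGGAA 1.38 and TGTTTAC 1.15. At or above the median signal they were GGTCACAC 1.13, CACGTG 0.914, CCGGAA 1.27 and AGGTCA 1.06. With divergent peaks kept they were noncoding exons 1.01, CACGTG 0.88 and CAGCTG 0.997. At 200 to 500 bp they were GATAAG 0.998, AGGTCA 1.30 and GCCATT 1.01, and with strata of 2 points AGGTCA 1.04. Upstream without coding exons they were CACGTG 0.762, CAGCTG 0.95 and CCGGAA 1.08. Without a replicate the ranges were 0.868 to 1.31 for noncoding exons, 0.964 to 1.38 for CACACACA, 0.799 to 3.02 for TATCGATA, 0.755 to 1.05 for TGAGTCA and 1.04 to 1.31 for TGTTTAC. The summit minus flank difference, in percentage points, ranged without a replicate from -0.223 to 0.226 for TAATTA, from -2.03 to 0.668 for GAGAGAG and from -0.445 to 3.61 for TATAAA, and was -0.386 for TAATTA at or above the median signal.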

Other observations

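The remaining gene lists are given as counts of genes with a member among those with a candidate in the window, beside 9.35% over all genes. Early patterning factors had 2 of 12, the endoderm factor gene fkh (235) and cnc (110). Cell junction and polarity genes had 3 of 13, ds (184), ed (119) and sdt (117), and integrin and basement membrane genes 2 of 12, if (83.5) and LanA (71.4). Actin genes had 3 of 17, with the cytoplasmic actin gene Act5C at 254, the myosin VI gene jar at 186 and Moe at 95.2. Cell cycle genes had 2 of 12, the E2F partner Dp (126) and fzr (109). Ecdysone response and nuclear receptor genes had 2 of 16, Hr51 (95.04) and Hnf4 (74.1), and tracheal genes 2 of 10, sty (94.3) and peb (70.6). Insulator and interband genes had 1 of 8, JIL-1 (98.4), RNA polymerase II genes 1 of 9, bin3 (111), and heat shock genes 1 of 7, Hsc70-3 (76.3). Germline genes had 0 of 5, which allows a share of up to 60%.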
